A study of Homo sapiens with 60 samples.

Results

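NQO1, AKR1C1, AKR1C2, AKR1C3, AKR1B10, PGD, TKT, TALDO1, and ME1 are NRF2-type reductases and enzymes that make NADPH or act in the pentose phosphate pathway. They were taken by gene name, as 9 of the 62703 genes in the count table, and all 60 libraries were used. The libraries were 3′ mRNA-sequencing libraries of 1321N1, a human astrocytoma cell line, and no other line was used. Cells received 2.55 µM sodium metaarsenite (arsenic), 2.3 µM cadmium chloride (cadmium), or 20 µM mercury chloride (mercury), which the study chose as equitoxic concentrations, and were lysed at 5 times from 1.5 to 24 h (1.5, 3, 6, 12, and 24). Non-treated cells were lysed at each time, and each of the 20 groups held 3 libraries. The submitters describe the triplicates as technical, so the p-values measure the spread between these libraries, which may be technical. Each metal was compared with non-treated cells of the same time, to ask when and how far each metal moved these transcripts, so the 3 metals share their controls.

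NRF2, encoded by NFE2L2, is a transcription factor that KEAP1 holds at a low level in resting cells. Arsenite, cadmium, and mercury react with thiols, and modification of KEAP1 cysteines lets NRF2 accumulate and bind antioxidant response elements with small MAF partners. Its targets include quinone and carbonyl reductases, which use NADPH or NADH to detoxify reactive compounds, and the enzymes that make NADPH. The oxidative branch of the pentose phosphate pathway (PGD among its enzymes) and malic enzyme (ME1) produce NADPH, while TKT and TALDO1 carry carbon back from pentose phosphates to glycolysis.

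Libraries held between 2215276 and 4404609 counts, with a biological coefficient of variation of 0.12 in common. The mesenchymal and glial genes VIM, CD44, and SOX9 had counts in all 60 libraries, but the astrocyte-defining genes GFAP and S100B were at 0 in 57 and 59 libraries, and AQP4 and ALDH1L1 in all 60. Leukocyte markers summed to at most 3.47 CPM (counts per 1e+06 counts) and oligodendrocyte markers to at most 1.15 CPM in any library. The neuron markers summed to 5.85 to 15.1 CPM in non-treated and 7.37 to 21.8 CPM in metal-treated libraries, mostly from SYT1, with RBFOX3 at 0 in 57. The epithelial and endothelial markers summed to 37.4 to 59.95 CPM and 41.4 to 89.5 CPM, mostly from KRT18, which had counts in all 60 libraries, with EPCAM at 0 in 55 and PECAM1 in 56. All libraries came from the same cultured line, and the part of these marker genes in the results was not tested. In 3 libraries under 4% of counts fell on mitochondrially encoded genes, namely arsenic 3 h replicate 2 (1.91%), arsenic 6 h replicate 3 (3.83%), and cadmium 6 h replicate 1 (1.35%), against 4.58 to 7.94% elsewhere. Without these 3 libraries the pairs of gene and time called higher numbered 13 for arsenic, 7 for cadmium, and 18 for mercury, against 14, 7, and 18 with them. In these bulk libraries fewer cells with a transcript and less of it per cell cannot be told apart.

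The genes lie on several chromosomes of GRCh38. NQO1 (ENSG00000181019.13) is at chr16:69706996-69726668 on the minus strand, PGD (ENSG00000142657.21) at chr1:10398592-10420511 on the plus strand, and ME1 (ENSG00000065833.9) at chr6:83210402-83431051 on the minus strand. TKT (ENSG00000163931.17) is at chr3:53224712-53256052 on the minus strand, TALDO1 (ENSG00000177156.11) at chr11:747415-765012 on the plus strand, and AKR1B10 (ENSG00000198074.10) at chr7:134527567-134541412 on the plus strand. The 3 AKR1C genes are neighbors on chromosome 10. AKR1C1 (ENSG00000187134.14) spans chr10:4963253-4983283 on the plus strand, AKR1C2 (ENSG00000151632.18) spans chr10:4987775-5018031 on the minus strand, and AKR1C3 (ENSG00000196139.14) spans chr10:5035354-5107686 on the plus strand.

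The AKR1C genes are close copies, and this bears on how their reads were counted. The coding sequences of AKR1C1 and AKR1C2, each of 972 bases, were identical at 953 positions (98%), and AKR1C3 shared 91.5% with AKR1C1 and 91% with AKR1C2. Reads of these 3′ mRNA libraries fall near the 3′ end of transcripts. In the last 400 bases of the canonical transcripts (GENCODE v44) 59.3% of the 50-base windows of AKR1C2 and 47.2% of its 100-base windows also occurred in AKR1C1. The value was 12.5% of the 50-base windows for AKR1C3 and 0% for AKR1C1, with 0 to 3.99% over the 2 annotated AKR1C1 transcripts. Secondary alignments were ignored in the counting, so a read that matches both copies equally could be counted at either, and the AKR1C2 and AKR1C3 values are uncertain. The AKR1C1 counts may likewise include reads of AKR1C2. The other 6 genes shared no such window with another gene.

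Their promoters were close copies as well. RefSeq promoter windows (GRCh38.p14, 250 bases before to 50 bases after the start site) were found for 8 of the 9 genes, all but AKR1B10. The AKR1C1 and AKR1C2 windows were identical at 288 of 292 aligned bases (98.6%) with 4 gap positions, while AKR1C1 and the 2 AKR1C3 windows were 78% and 79.9% identical. The stretch that holds the differing bases is shown for this pair because both genes rose together at 12 and 24 h with mercury and arsenic. Each is read 5′ to 3′ on the strand of its gene, from chr10:4963285-4963464 (plus strand) and chr10:5003816-5003991 (minus strand), and capitals mark bases that differ or are absent in the other gene.
AKR1C1: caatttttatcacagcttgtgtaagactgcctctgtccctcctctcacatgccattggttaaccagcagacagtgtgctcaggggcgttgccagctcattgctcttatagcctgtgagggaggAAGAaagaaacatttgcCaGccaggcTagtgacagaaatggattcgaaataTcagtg
AKR1C2: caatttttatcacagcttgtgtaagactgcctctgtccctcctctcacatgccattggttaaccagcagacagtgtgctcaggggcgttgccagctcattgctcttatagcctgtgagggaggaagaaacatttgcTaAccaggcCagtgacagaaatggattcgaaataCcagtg

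The core of the antioxidant response element, TGACNNNGC, was searched on both strands of these windows. It occurred in PGD (1 match) and ME1 (2 matches), and in 4687 of all 35116 RefSeq promoter windows (13.3%). The ME1 match upstream of the start site overlaps TGACTCA, which 1738 windows (4.95%) held and which is also the AP-1 motif. A match is a run of letters and not a measured binding site, and the other windows simply do not contain these letters. Both genes were raised by arsenic and mercury, as were NQO1, AKR1C1, AKR1C2, AKR1C3, and TALDO1, whose windows held no match. The part of the matches in these changes was not tested. The 2 stretches are shown because they hold the matches, given in capitals, from chr1:10398823-10398911 (PGD, plus strand) and chr6:83431002-83431228 (ME1, minus strand).
PGD: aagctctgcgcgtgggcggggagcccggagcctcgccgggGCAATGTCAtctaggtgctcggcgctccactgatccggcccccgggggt
ME1: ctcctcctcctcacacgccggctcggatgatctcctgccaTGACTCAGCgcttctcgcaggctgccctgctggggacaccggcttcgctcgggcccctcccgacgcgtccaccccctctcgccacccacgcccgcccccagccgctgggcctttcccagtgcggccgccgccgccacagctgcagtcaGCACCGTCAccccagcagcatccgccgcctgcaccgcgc

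At 24 h edgeR called 8 of these genes higher with arsenic, 7 with mercury, and 2 with cadmium (NQO1 and AKR1C1). DESeq2, a second tool, called 8, 7, and 4 in that order, with PGD and TALDO1 added for cadmium. The cadmium calls of TALDO1 and ME1 by edgeR came at 12 h only and, like that of NQO1 at 24 h, were lost without single libraries. The first calls by edgeR came at 3 h with mercury and at 6 h with arsenic and cadmium. A gene was called when edgeR's quasi-likelihood test gave an adjusted p under 0.05 over the 12341 genes that passed the low-count filter, and 8 of the 9 genes passed it, all but AKR1B10. Mercury raised 0, 1, 4, 6, and 7 of the 8 genes at the 5 times in order. Of all genes tested, 0.478, 1.39, 4.49, 8.89, and 13.9% were called higher with mercury at these times. Arsenic raised 0, 0, 1, 5, and 8 of the 8, against 0.0648, 0.122, 0.608, 2.37, and 6.54% of all genes. Cadmium raised 0, 0, 1, 4, and 2 of the 8, against 0, 0.203, 1.6, 5.19, and 1.56% of all genes.

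Where edgeR called 0 genes, an unadjusted p under 0.05 was reached by 1 and 2 genes with arsenic at 1.5 and 3 h, by 0 and 1 with cadmium at 1.5 and 3 h, and by 0 with mercury at 1.5 h. DESeq2 called 1 gene with arsenic at 1.5 h and 0 at the other 4 of these points. None of the 40 pairs of gene and time per metal was called lower by edgeR or by DESeq2, and none was lower at an unadjusted p under 0.05. Of all genes, the shares called lower at the 5 times were 0.0081, 0.0162, 0.308, 1.74, and 7.75% with arsenic, 0, 0, 0.446, 2.99, and 0.632% with cadmium, and 0.0891, 0.154, 2.99, 7.16, and 13.9% with mercury.

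At 24 h the median log2 fold change (LFC) of the 8 genes was 1.25 with mercury, 1.21 with arsenic, and 0.33 with cadmium, against -0.02, 0, and -0.01 over all genes. With arsenic 5 of the 8 genes were called with an LFC above 1, with mercury 5, and with cadmium 1. Over all genes these shares were 1.89, 4.85, and 0.527%. Both the reductases and the pentose phosphate and malic enzymes contributed to the higher counts with arsenic and mercury, and the gene above 1 with cadmium was AKR1C1.

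**Figure D1:**
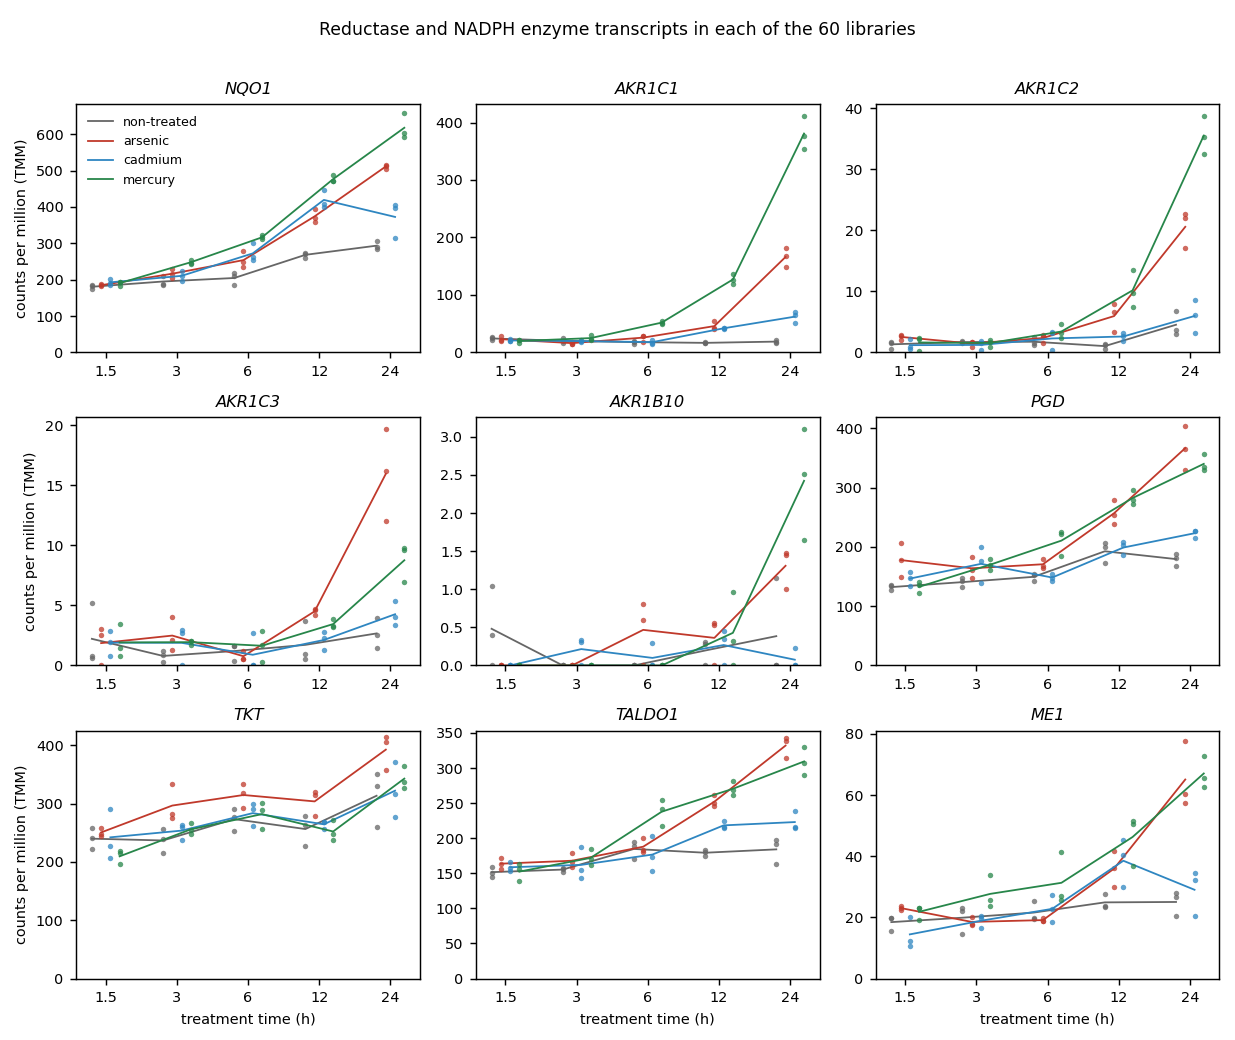
CPM (TMM-scaled, linear axis from 0, a scale per panel) of each of the 9 genes against treatment time (the 5 times evenly spaced), with each of the 3 libraries per group as a point and the group mean as a line. AKR1C1 reached a mean of 381 CPM with mercury at 24 h against 18.8 in non-treated cells, and NQO1 rose over time in non-treated cells as well.

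NQO1 encodes NAD(P)H quinone dehydrogenase, which reduces quinones without forming semiquinone radicals. In non-treated cells at 24 h its 3 libraries had 306, 291, and 283 CPM. They had 593, 658, and 603 CPM with mercury, 513, 515, and 505 with arsenic, and 396, 406, and 316 with cadmium. Every treated library lay above every non-treated one at 24 h. The LFC at 24 h was 1.07 (SE 0.08, adjusted p = 8.63e-18) with mercury, 0.80 (SE 0.08, adjusted p = 3e-12) with arsenic, and 0.35 (SE 0.08, adjusted p = 0.00638) with cadmium.

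NQO1 was the first of these genes to be called by edgeR with each metal, while DESeq2 called 1 gene with arsenic at 1.5 h. It was called from 3 h with mercury (LFC 0.35, SE 0.08, adjusted p = 0.00986) and from 6 h with cadmium (LFC 0.41, SE 0.08, adjusted p = 0.000929) and arsenic (LFC 0.31, SE 0.08, adjusted p = 0.0473). With cadmium the LFC was 0.64 at 12 h, above its value at 24 h. The earliest calls rested on few libraries. The arsenic call at 6 h was lost without arsenic replicate 2 (LFC 0.33), arsenic replicate 3 (0.25), which is 1 of the libraries of low mitochondrial share, non-treated replicate 1 (0.26), or non-treated replicate 2 (0.34). The mercury call at 3 h was lost without mercury replicate 3 (0.33), non-treated replicate 1 (0.31), or non-treated replicate 2 (0.31), and the cadmium call at 24 h without cadmium replicate 1 (0.30) or replicate 2 (0.28). The cadmium call at 6 h held without each library in turn.

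AKR1C1 encodes an aldo-keto reductase that acts on steroids, including progesterone, and on lipid aldehydes, and it had the largest LFC of the 8 genes at 24 h with each metal. At 24 h the 3 non-treated libraries had 17.0, 17.5, and 21.9 CPM, from raw counts of 66, 57, and 76. With mercury they had 376, 412, and 355 CPM (1196, 1328, and 1073 counts), with arsenic 149, 167, and 182 CPM (446, 577, and 618 counts), and with cadmium 64.6, 51.0, and 71.1 CPM (284, 178, and 198 counts). No library of one treatment overlapped that of another. The level was 20.2-fold higher with mercury (LFC 4.34, SE 0.15, adjusted p = 7.98e-35), 8.83-fold with arsenic (LFC 3.14, SE 0.15, adjusted p = 1.32e-26), and 3.30-fold with cadmium (LFC 1.72, SE 0.16, adjusted p = 1.44e-13).

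The onset of AKR1C1 differed between the metals. With mercury it was called from 6 h, where its mean was 51.9 ± 2.55 CPM (SD, n = 3) against 18.0 ± 2.37 in non-treated cells (LFC 1.54, SE 0.17), and at 12 h it reached 127 ± 9.46 CPM (LFC 2.93, SE 0.16). With arsenic and cadmium it was called from 12 h, at 45.8 ± 7.30 CPM (LFC 1.47, SE 0.16) and 42.0 ± 0.80 CPM (LFC 1.34, SE 0.17) against 16.6 ± 1.39. At 6 h the arsenic mean was 25.8 ± 5.95 CPM (LFC 0.53, SE 0.18, adjusted p = 0.184) and the cadmium mean 17.9 ± 3.19 CPM, neither of which passed the test. All AKR1C1 calls held without each library in turn.

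AKR1C2 encodes a close relative that inactivates dihydrotestosterone. Its counts were low, and 12, 22, and 13 reads fell on it in the non-treated libraries at 24 h, against 123, 105, and 107 with mercury, 51, 76, and 77 with arsenic, and 27, 11, and 24 with cadmium. The mercury and arsenic libraries lay above the non-treated ones, while the cadmium and non-treated libraries overlapped. At 24 h the LFC was 2.98 (SE 0.39, adjusted p = 4.69e-09) with mercury and 2.19 (SE 0.39, adjusted p = 1.89e-05) with arsenic, and with cadmium it was 0.39 (95% interval of -0.43 to 1.21, adjusted p = 0.79, and 0.079 to 0.783 over the alternatives). At 12 h the LFC was 3.26 (SE 0.50) with mercury and 2.49 (SE 0.52) with arsenic, both called, and 1.29 (SE 0.61, adjusted p = 0.198) with cadmium. From 12 h to 24 h its mean went from 10.17 to 35.53 CPM with mercury and from 5.956 to 20.58 with arsenic. In non-treated cells it went from 1.035 to 4.535 CPM, so the LFC was no larger at 24 h. All 4 calls held without each library in turn.

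AKR1C3 encodes a reductase of prostaglandins and androgens. Its counts were lower still, with 10, 13, and 5 reads in the non-treated libraries at 24 h. There were 36, 68, and 55 reads with arsenic, 31, 31, and 21 with mercury, and 15, 14, and 15 with cadmium. Unlike the other reductases, its highest mean was with arsenic, at 16.0 ± 3.82 CPM, against 8.77 ± 1.59 with mercury. The direct difference of arsenic minus mercury did not pass edgeR's test (0.86, 95% interval of -0.20 to 1.93, adjusted p = 0.344). The LFC at 24 h was 2.57 (SE 0.61, adjusted p = 0.00153) with arsenic and 1.71 (SE 0.62, adjusted p = 0.0311) with mercury, and with cadmium it was 0.66 (95% interval of -0.62 to 1.94, adjusted p = 0.761, and 0.377 to 1.041 over the alternatives). It was called at no earlier time. The mercury call was lost without mercury replicate 1 (LFC 1.63), mercury replicate 2 (1.65), non-treated replicate 1 (1.70), or non-treated replicate 3 (1.44), while the arsenic call held without each library in turn.

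AKR1B10 encodes a reductase of retinal and other aldehydes that is known as an NRF2 target in lung and liver tumors. It was near the floor, with 65 counts in all over the 60 libraries, 37 of them at 0, and at most 3 counts in every library of 17 of the 20 groups. Its counts at 24 h were 8, 10, and 5 with mercury, 3, 5, and 5 with arsenic, 1, 0, and 0 with cadmium, and 0, 0, and 4 in non-treated cells. The mercury libraries lay above the non-treated ones, and the arsenic and non-treated libraries overlapped. With no low-count filter, edgeR gave adjusted p = 0.36 for mercury at 24 h, so a change of AKR1B10 was not detectable at this depth.

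PGD encodes 6-phosphogluconate dehydrogenase, an NADPH producing enzyme of the pentose phosphate pathway. Its 3 non-treated libraries at 24 h had 182, 168, and 189 CPM. They had 404, 366, and 330 CPM with arsenic, 329, 356, and 335 with mercury, and 226, 216, and 227 with cadmium. The treated libraries did not overlap the non-treated ones with any metal. The LFC was 1.03 (SE 0.10, adjusted p = 9.18e-13) with arsenic and 0.92 (SE 0.10, adjusted p = 1.87e-11) with mercury. With cadmium it was 0.31 (95% interval of 0.12 to 0.51), which edgeR did not call (adjusted p = 0.0922) and DESeq2 did.

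PGD was called from 6 h with mercury (LFC 0.49, SE 0.10, adjusted p = 0.000534) and from 12 h with arsenic (LFC 0.42, SE 0.10, adjusted p = 0.00529). At 12 h with mercury its LFC was 0.55 (SE 0.10). With arsenic at 1.5 h it was 178 ± 28.6 CPM against 132 ± 3.76 in non-treated cells (LFC 0.43, SE 0.10, adjusted p = 0.0889), which edgeR did not call. The arsenic call at 12 h was lost without arsenic replicate 1 (LFC 0.35) or non-treated replicate 3 (0.34).

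TALDO1 encodes transaldolase of the non-oxidative branch. At 24 h it had 192, 197, and 163 CPM in the non-treated libraries, 314, 343, and 338 with arsenic, 290, 307, and 331 with mercury, and 216, 215, and 238 with cadmium. The metal libraries again lay above all non-treated ones. The LFC was 0.85 (SE 0.09, adjusted p = 1.55e-11) with arsenic and 0.75 (SE 0.09, adjusted p = 4.55e-10) with mercury, while with cadmium it was 0.27 (95% interval of 0.10 to 0.45, adjusted p = 0.103). TALDO1 was called from 6 h with mercury (LFC 0.37, SE 0.09) and from 12 h with arsenic (LFC 0.49, SE 0.09). With cadmium edgeR called it at 12 h only (LFC 0.28, SE 0.09, adjusted p = 0.0381), while DESeq2 called it at 24 h.

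The smaller TALDO1 calls depended on single libraries. The mercury call at 6 h was lost without non-treated replicate 3 (LFC 0.32). The cadmium call at 12 h was lost without any 1 of its 6 libraries, with LFC values of 0.29, 0.26, and 0.29 without cadmium replicates 1, 2, and 3, and of 0.29, 0.27, and 0.30 without non-treated replicates 1, 2, and 3.

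TKT encodes transketolase, the partner of TALDO1 in the non-oxidative branch, and it had the smallest LFC of the 8 genes at 24 h with each metal. At 24 h it had 331, 350, and 259 CPM in the non-treated libraries, 414, 405, and 358 with arsenic, 364, 328, and 337 with mercury, and 317, 278, and 372 with cadmium. The arsenic libraries lay above all non-treated ones, and those of the other metals overlapped them. Its LFC was 0.32 (SE 0.10, adjusted p = 0.0219) with arsenic. It was 0.13 (95% interval of -0.07 to 0.33, adjusted p = 0.376) with mercury and 0.04 (95% interval of -0.16 to 0.24, adjusted p = 0.939) with cadmium. The arsenic call was lost without arsenic replicate 1 (LFC 0.28), arsenic replicate 2 (0.30), or non-treated replicate 3 (0.22). TKT was called at no other time.

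ME1 encodes the cytosolic malic enzyme, which forms pyruvate and NADPH from malate. At 24 h it had 20.6, 28.0, and 26.5 CPM in the non-treated libraries, 72.7, 65.7, and 62.8 with mercury, 60.2, 57.3, and 77.8 with arsenic, and 34.6, 32.1, and 20.5 with cadmium. The mercury and arsenic libraries were more than 1.5 times as high as any non-treated one. The LFC was 1.43 (SE 0.19, adjusted p = 1.02e-08) with mercury and 1.38 (SE 0.19, adjusted p = 4.94e-08) with arsenic, while with cadmium it was 0.24 (95% interval of -0.15 to 0.63, adjusted p = 0.693, and 0.093 to 0.424 over the alternatives).

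At 12 h ME1 was called with mercury (LFC 0.90, SE 0.19, adjusted p = 0.000434) and cadmium (LFC 0.62, SE 0.20, adjusted p = 0.0372), and with arsenic its LFC was 0.53 (SE 0.20, adjusted p = 0.122). The cadmium call was lost without cadmium replicate 1 (LFC 0.58), cadmium replicate 3 (0.48), or non-treated replicate 1 (0.71), 2 (0.59), or 3 (0.58). The mercury call held without each library in turn.

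**Figure D2:**
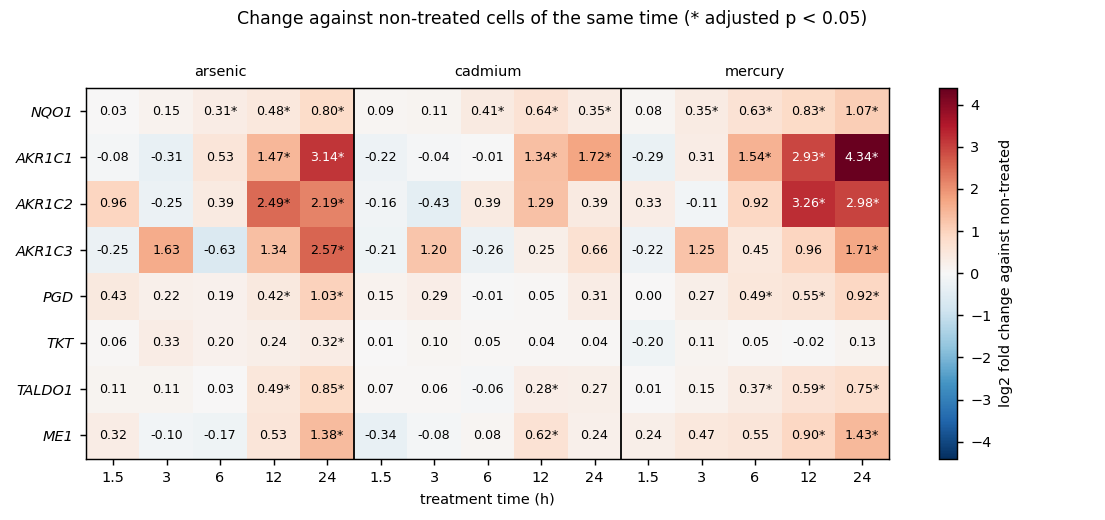
LFC against non-treated cells of the same time for the 8 genes tested (rows) at 5 times for each metal (columns), with an asterisk where edgeR's adjusted p was under 0.05. AKR1C1 with mercury at 24 h holds the highest value (4.34), and no cell with a negative value carries an asterisk.

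Direct comparison of the metals at the same time asked which differences between them passed a test of their own. With arsenic against cadmium 0, 0, 0, 1, and 7 of the 8 genes were called at the 5 times, all higher with arsenic, against 0, 0.138, 1.18, 5.77, and 10.2% of all genes in either direction. With cadmium against mercury 0, 0, 3, 4, and 6 were called, all lower with cadmium, against 0.656, 1.78, 3.78, 3.29, and 20% of all genes. With arsenic against mercury 1 gene was called higher at 1.5 h, 0 at 3 h, and 4, 2, and 2 lower at 6, 12, and 24 h, against 1.56, 1.89, 4.48, 6.84, and 11.4%. Where 0 genes were called, an unadjusted p under 0.05 was reached by 2, 1, and 1 genes for arsenic against cadmium at 1.5, 3, and 6 h, by 4 for arsenic against mercury at 3 h, and by 2 and 3 for cadmium against mercury at 1.5 and 3 h. DESeq2 called 1 gene for arsenic against mercury at 3 h and 0 at the other 5 of these points.

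AKR1C1 separated the metals at 24 h in all 3 comparisons. Arsenic was 1.42 above cadmium on the log2 scale (SE 0.13, adjusted p = 3.45e-13) and below mercury, by a difference of -1.197 (SE 0.13, adjusted p = 1.57e-11), and cadmium minus mercury was -2.62 (SE 0.13, adjusted p = 2.96e-25). AKR1C2 was higher with arsenic than with cadmium by 1.80 (SE 0.38, adjusted p = 0.000411), and its difference of arsenic minus mercury was -0.78 (95% interval of -1.45 to -0.12, adjusted p = 0.129). NQO1 was higher with arsenic than with cadmium by 0.45 (SE 0.08, adjusted p = 1.99e-05), and arsenic minus mercury was -0.27 (SE 0.08, adjusted p = 0.0148), a call lost without mercury replicate 2 (-0.23). AKR1C3 was higher with arsenic than with cadmium by 1.92 (SE 0.58, adjusted p = 0.0212), a call lost without arsenic replicate 2 (1.74), cadmium replicate 1 (1.77), or cadmium replicate 2 (1.89).

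For PGD, TALDO1, TKT, and ME1, no difference between arsenic and mercury passed the test at 24 h. The difference of arsenic minus mercury was 0.11 (95% interval of -0.08 to 0.30) for PGD, 0.10 (-0.07 to 0.28) for TALDO1, 0.19 (-0.01 to 0.40) for TKT, and -0.04 (-0.39 to 0.31) for ME1. Cadmium separated from both for 3 of the 4. Arsenic minus cadmium was 0.72 (SE 0.10) for PGD, 0.58 (SE 0.09) for TALDO1, and 1.15 (SE 0.19) for ME1, and cadmium minus mercury was -0.61 (SE 0.10), -0.47 (SE 0.09), and -1.19 (SE 0.19), all called. For TKT arsenic minus cadmium was 0.29 (95% interval of 0.09 to 0.49), which edgeR did not call (adjusted p = 0.06) and DESeq2 did. Its cadmium minus mercury difference was -0.09 (-0.29 to 0.11).

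The calls at 6 h were all lower with arsenic or cadmium than with mercury. At 6 h AKR1C1 with arsenic minus mercury was -1.005 (SE 0.15, adjusted p = 2.6e-06) and with cadmium minus mercury -1.54 (SE 0.16, adjusted p = 2.38e-10), and both held without each library in turn. NQO1 (-0.32), TALDO1 (-0.34), and ME1 (-0.72) were also lower with arsenic than with mercury at 6 h. Each of these 3 calls was lost without arsenic replicate 1 (-0.26, -0.32, and -0.71) or arsenic replicate 2 (-0.31, -0.32, and -0.71). The TALDO1 call was also lost without mercury replicate 1 (-0.29) or 2 (-0.34), and the ME1 call without arsenic replicate 3 (-0.74) or mercury replicate 3 (-0.47).

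PGD (-0.50) and TALDO1 (-0.42) were lower with cadmium than with mercury at 6 h, and the TALDO1 call was lost without cadmium replicate 2 (-0.33). At 12 h AKR1C1 (-1.59), AKR1C2 (-1.97), PGD (-0.51), and TALDO1 (-0.31) were lower with cadmium than with mercury. Of these, the AKR1C2 call was lost without cadmium replicate 2 (-1.78) or mercury replicate 3 (-1.72). The TALDO1 call was lost without any 1 of its 6 libraries, with values of -0.30, -0.33, and -0.30 without cadmium replicates 1, 2, and 3 and of -0.34, -0.31, and -0.28 without mercury replicates 1, 2, and 3.

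At 12 h AKR1C1 (-1.47, SE 0.14) and NQO1 (-0.35, SE 0.08) were lower with arsenic than with mercury, and PGD was higher with arsenic than with cadmium (0.37, SE 0.10). The PGD call was lost without arsenic replicate 1 (0.31) or cadmium replicate 2 (0.32). At 1.5 h PGD was higher with arsenic than with mercury (0.42, SE 0.10, adjusted p = 0.0153), and this call was lost without arsenic replicate 1 (0.41), arsenic replicate 2 (0.30), mercury replicate 1 (0.36), or mercury replicate 2 (0.42).

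**Figure D3:**
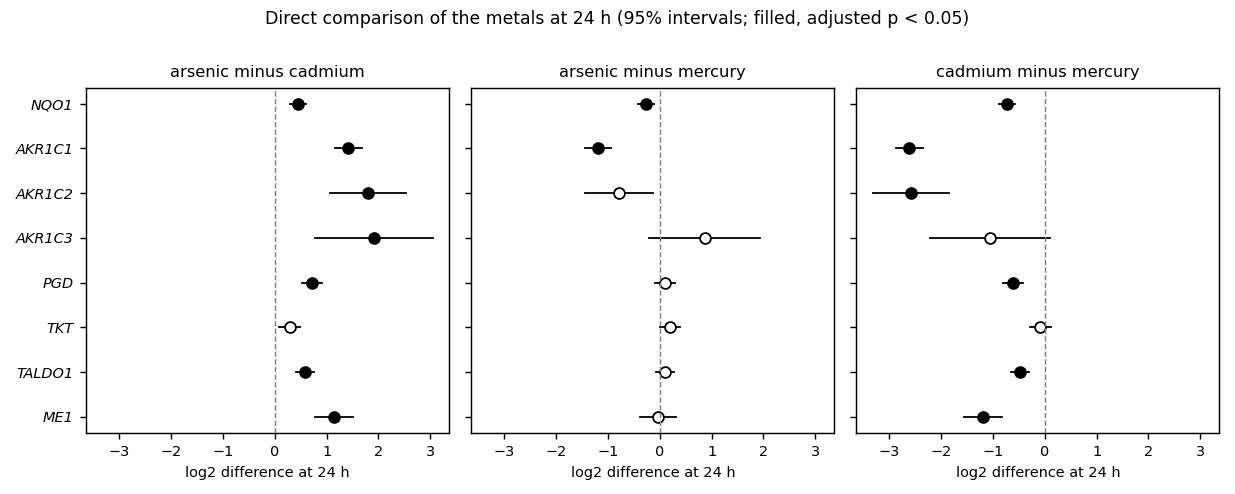
Direct log2 differences between metals at 24 h for the 8 genes tested, with 95% intervals as lines and filled points where edgeR's adjusted p was under 0.05. Arsenic minus cadmium lies above 0 for all 8 genes and passed for 7, and arsenic minus mercury passed only for NQO1 and AKR1C1.

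Whether the response still grew after 12 h was tested as the effect of a metal at 24 h minus its effect at 12 h. With arsenic 2 of the 8 genes were called, against 1.57% of all genes. AKR1C1 grew by a further 1.68 (SE 0.23, adjusted p = 4.03e-06) and PGD by 0.61 (SE 0.14, adjusted p = 0.0118), of which the PGD call was lost without arsenic 24 h replicate 1 (0.54). With mercury only AKR1C1 was called (1.40, SE 0.22, adjusted p = 9.37e-05), against 0.624% of all genes. With cadmium edgeR and DESeq2 called 0 of the 8 genes, and 1 had an unadjusted p under 0.05, against 0.381% of all genes called. That gene was NQO1, with a difference of -0.30 (95% interval of -0.52 to -0.08, adjusted p = 0.318).

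The non-treated cells themselves moved over the time course. Against 1.5 h, 0, 0, 2, and 3 of the 8 genes were called in non-treated cells at 3, 6, 12, and 24 h, all higher, against 0.122, 0.486, 4.09, and 3.29% of all genes. At 3 h and 6 h, where edgeR called 0, DESeq2 also called 0, and 0 and 3 genes had an unadjusted p under 0.05. NQO1 rose from 181 ± 5.54 CPM at 1.5 h to 268 ± 7.24 at 12 h (LFC 0.57, SE 0.08) and 294 ± 11.8 at 24 h (LFC 0.70, SE 0.08, adjusted p = 1.43e-08). PGD was higher at 12 h (LFC 0.54, SE 0.10) and 24 h (LFC 0.44, SE 0.10, adjusted p = 0.00754), and TKT at 24 h (LFC 0.39, SE 0.10, adjusted p = 0.0231).

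edgeR called AKR1C1 at no time in non-treated cells. Its difference from 1.5 h was -0.55 at 12 h (95% interval of -0.90 to -0.20, adjusted p = 0.0622), which DESeq2 called lower (adjusted p = 0.0334), and -0.37 at 24 h (95% interval of -0.72 to -0.03, adjusted p = 0.258). AKR1C2 at 24 h was 1.76 above 1.5 h (95% interval of 0.69 to 2.83, edgeR adjusted p = 0.0563), which DESeq2 called higher (adjusted p = 0.0346). DESeq2 also called TALDO1 higher at 24 h (adjusted p = 0.0424), where edgeR gave an LFC of 0.28 (adjusted p = 0.0768). The TKT call at 24 h was lost without non-treated 24 h replicate 1 (0.33) or 2 (0.29) or non-treated 1.5 h replicate 2 (0.32) or 3 (0.37), and the PGD call at 24 h without non-treated 1.5 h replicate 2 (0.41). Without that last library 3 in place of 5 pairs of gene and time were called.

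The order of the 20 group means showed where neighbors were apart. For NQO1 the top was mercury at 24 h (618 CPM), arsenic at 24 h (511), mercury at 12 h (477), and cadmium at 12 h (419), and none of these 4 overlapped the next below it. For AKR1C1 the top was mercury at 24 h (381), arsenic at 24 h (166), and mercury at 12 h (127), each apart from the next, followed by cadmium at 24 h (62.2), mercury at 6 h (51.9), arsenic at 12 h (45.8), and cadmium at 12 h (42.0), each overlapping the next of these, and cadmium at 12 h stood apart from the group below it. For PGD, TKT, and TALDO1 arsenic at 24 h was highest and overlapped mercury at 24 h, and for ME1 mercury at 24 h was highest and overlapped arsenic at 24 h. Of the 19 neighboring pairs, 13 overlapped for NQO1, 15 for AKR1C1, 16 for TALDO1, 17 for AKR1C2, AKR1C3, and PGD, 18 for ME1 and AKR1B10, and 19 for TKT.

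Of 9 other pentose phosphate pathway genes tested, edgeR and DESeq2 called 0 at 24 h with each metal. An unadjusted p under 0.05 was reached by 3 of them with cadmium, 1 with mercury, and 0 with arsenic, and their median LFC values were -0.23, -0.11, and -0.18 in that order. The non-oxidative isomerase RPIA had an LFC of 0.14 with arsenic and -0.10 with mercury, and the epimerase RPE had 0.01 and 0.03.

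Of 12 other NADPH producing enzymes tested, 3 were higher and 1 lower with arsenic at 24 h, against 6.54 and 7.75% of all genes, and 4 were higher and 1 lower with mercury, against 13.9% in each direction. The median LFC was 0.16 and 0.15. Here and in the lists below, genes are given only for metals where their absolute LFC was among the 2 largest called. Values added for comparison are the exception. A metal left out for a gene does not mean that the gene did not change with it. With cadmium edgeR and DESeq2 called 0, 1 gene had an unadjusted p under 0.05, and the median LFC was 0.04. MTHFD2, which makes NADPH or NADH from mitochondrial folate, rose from 133 to 400 CPM with arsenic (LFC 1.58, SE 0.11, adjusted p = 6.04e-19), and ALDH1L2, its neighbor in that cycle, had an LFC of 2.20 (SE 0.34, adjusted p = 7.07e-07). ALDH1L2 also rose with mercury (LFC 1.98, SE 0.34, adjusted p = 3.86e-06), as did MTHFD2L (LFC 2.84, SE 0.55, adjusted p = 3.71e-05). With cadmium ALDH1L2 had an LFC of -0.31 (adjusted p = 0.827) and MTHFD2 of 0.15 (adjusted p = 0.641).

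Of 19 other aldo-keto and carbonyl reductases tested, 3 were higher and 2 lower with arsenic at 24 h (6.54 and 7.75% of all genes), 1 higher and 0 lower with cadmium (1.56 and 0.632%), and 6 higher and 5 lower with mercury (13.9% in each direction). AKR1B1, the aldose reductase, rose with arsenic (LFC 0.90, SE 0.10, adjusted p = 1.39e-10) and cadmium (LFC 0.48, SE 0.10, adjusted p = 0.0016). CYB5R1, a cytochrome b5 reductase, rose with arsenic (LFC 0.92, SE 0.18, adjusted p = 8.97e-05), and PTGR1, a prostaglandin reductase, rose with mercury (LFC 1.13, SE 0.22, adjusted p = 4.03e-05). TP53I3, a p53-induced quinone reductase, fell with mercury (LFC -1.06, SE 0.19, adjusted p = 9.59e-06). The median LFC of these reductases was -0.04 with mercury, 0.20 with arsenic, and 0.09 with cadmium.

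The other NRF2 targets moved in larger numbers. Of 22 tested, mercury raised 22, arsenic 21, and cadmium 9 at 24 h, and none was called lower by edgeR, against 13.9, 6.54, and 1.56% of all genes called higher, with median LFC values of 1.54, 1.26, and 0.51. HMOX1, the heme oxygenase, had the largest change, from 13.0 CPM in non-treated cells to 2417 with arsenic (LFC 7.55, SE 0.18, adjusted p = 6.33e-44), 359 with cadmium (LFC 4.79, SE 0.18, adjusted p = 1.84e-33), and 1905 with mercury (LFC 7.21, SE 0.18, adjusted p = 7.11e-43). TRIM16L had an LFC of 2.14 with arsenic (SE 0.22, adjusted p = 3.24e-12) and, like all 22, was also called higher with mercury. OSGIN1, an oxidative stress-induced growth inhibitor, had one of 1.22 with cadmium (SE 0.32, adjusted p = 0.026) and 3.13 with mercury (SE 0.30, adjusted p = 1.3e-13).

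Of the 10 regulators of NRF2, mercury raised 8 and lowered 1 at 24 h, arsenic raised 5, and cadmium raised 2, against 13.9, 6.54, and 1.56% of all genes called higher and 13.9% lower with mercury. SQSTM1, the autophagy receptor p62 that binds KEAP1, is in this list and among the other targets, and rose with arsenic (LFC 1.60, SE 0.09), cadmium (0.64, SE 0.09), and mercury (2.01, SE 0.09). BACH1, a repressor at the same elements, rose with arsenic (LFC 1.18, SE 0.27, adjusted p = 0.00107). The small MAF partner MAFK rose with cadmium (LFC 0.97, SE 0.19, adjusted p = 0.000486) and MAFF with mercury (LFC 1.99, SE 0.18, adjusted p = 1.2e-14). NFE2L2 itself had an LFC of 0.91 with mercury (adjusted p = 3.06e-07), 0.42 with arsenic (adjusted p = 0.0317), and 0.12 with cadmium (adjusted p = 0.822), and KEAP1 was not called with any metal.

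**Figure D4:**
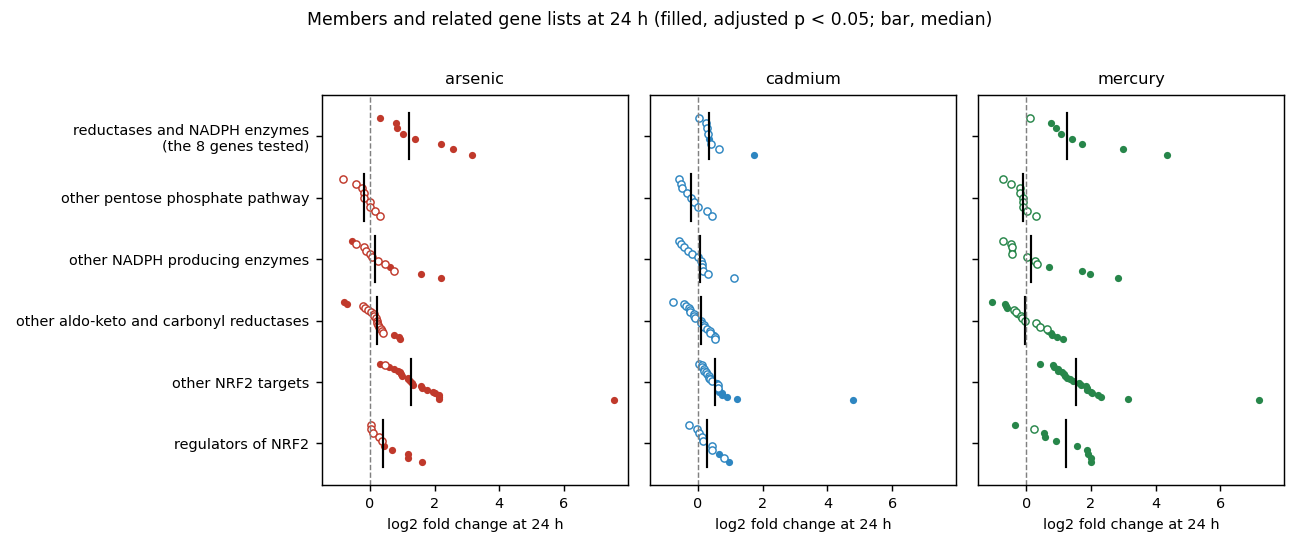
LFC against non-treated cells at 24 h, with a panel for each metal, for the 8 genes tested and for the tested genes of 5 related lists without them, each gene as a point (filled where edgeR's adjusted p was under 0.05) and the median as a bar. The 8 genes and the other NRF2 targets have medians of 1.21 and 1.26 with arsenic and of 1.25 and 1.54 with mercury, and the other pentose phosphate genes -0.18 and -0.11.

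The genes whose levels followed each of the 8 most closely over the 20 group means were described by Pearson's r of log2 (CPM + 1) among 10790 candidates. These means share their libraries, and the non-treated cells also changed over time. For NQO1 the closest were FTL (r = 0.97), ABHD4 (0.97), and GABARAPL1 (0.96), for TALDO1 TRIM16L (0.98), FTL (0.96), and FTH1 (0.96), and for PGD SLC1A5 (0.97), FTL (0.96), and TALDO1 (0.96). FTL and FTH1 encode the ferritin chains that store iron, and FTL recurred for 3 of the 8. For AKR1C1 the closest were SQSTM1 (0.97), UCHL1 (0.96), and HKDC1 (0.95), and for AKR1C2 PHGDH (0.96), AKR1C1 (0.94), and UBXN4 (0.94). The part of shared reads in the likeness of AKR1C2 and AKR1C1 was not tested. AKR1C3 was nearest to WDR45 (0.90), BLVRB (0.89), and UBXN4 (0.89), TKT to RPLP0 (0.91), CTSD (0.88), and GSTP1 (0.88), and ME1 to ATP6V0E1 (0.94), ARHGEF2 (0.94), and ZNF528-AS1 (0.94). The r values for TKT and AKR1C3 were the lowest of the 8. Spearman's rho, a correlation of ranks, was 0.93 to 0.97 for the genes named for NQO1. It was lower for those named for AKR1C1 (0.69 to 0.82), AKR1C2 (0.68 to 0.86), and AKR1C3 (0.59 to 0.80).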

How the data were processed

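3′ mRNA (QuantSeq FWD) libraries of 1321N1 cells were sequenced in 20 groups. The authors mapped reads with STAR 2.7.9a (GRCh38) and counted them strand-specifically on GENCODE basic exons with GenomicAlignments in Union mode, ignoring secondary alignments. The deposited values are raw counts per gene, without normalization. The 92 spike-in rows held 0 counts and were dropped, and 28620 genes had a count.

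From these counts, 1 edgeR 4.0.16 quasi-likelihood fit (R 4.3.3, limma 3.58.1) was made over the 60 libraries with a coefficient per group, TMM factors (0.934 to 1.03), and filterByExpr (minimum count 10, minimum total 15). P-values were Benjamini-Hochberg adjusted within each comparison, two-sided. CPM are TMM-scaled. The SE was taken as the absolute LFC over the square root of the F statistic, and LFC intervals are 95% (1.96 SE). Both are approximate, so an interval can exclude 0 where the unadjusted p is above 0.05. At most 3 counts in each library of a group was taken as the floor, and intervals cover only the spread between libraries.

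DESeq2 1.42.0, RLE factors, other filters, a replicate block, fits on the compared libraries alone, and leaving out each library were tried. Same-numbered libraries did not deviate together (correlations of -0.302 to 0.095 over 45 pairs), and were not treated as paired. No 2 libraries of a group agreed within sampling noise (chi-square per degree of freedom of at least 2.02 over 60 pairs). Fits were tested on simulated data. The genes and lists were chosen with earlier results of these data known. Named beyond the 9 genes are up to 2 genes per list and metal with the largest absolute LFC at 24 h among those called with a mean of at least 10 counts, and the 3 genes of highest r. MTHFD2 and ALDH1L2 values with cadmium, RPIA, RPE, NFE2L2, and KEAP1 were added for comparison after their values were seen. Protein sequences were not used here, and 1 gene of the lists is not reported here.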

Additional observations from a re-analysis of the deposited data

Results flagged for a closer look

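The effect of a metal differed between 12 h and 24 h in a test of the difference itself for 2 genes with arsenic and 1 with mercury. AKR1C1 rose by a further 1.68 on the log2 scale with arsenic (edgeR, adjusted p = 4.03e-06) and by 1.40 with mercury (adjusted p = 9.37e-05), and PGD rose by a further 0.61 with arsenic (adjusted p = 0.0118). The AKR1C1 differences passed the threshold without each library in turn, and the PGD difference did not without arsenic 24 h replicate 1 (0.54, adjusted p = 0.0595). Groups held 3 libraries each, too few for an outlier test.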

How the results depend on the processing

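The counts of genes called higher kept within 1.5 times of their values under DESeq2, RLE factors, a stricter filter, and fits on the compared libraries alone, except as follows. Requiring an LFC beyond 1 left 7 of 14 pairs of gene and time for arsenic, 2 of 7 for cadmium, and 8 of 18 for mercury, and in the direct comparisons 4 of 8 for arsenic against cadmium, 3 of 9 for arsenic against mercury, and 6 of 13 for cadmium against mercury. It left 1 gene for the arsenic effect at 24 h against 12 h and 0 pairs for non-treated cells over time. With no low-count filter, cadmium had 4 pairs in place of 7, as the calls of TALDO1 and ME1 at 12 h and NQO1 at 24 h were lost, and NQO1 with arsenic at 6 h and with mercury at 3 h was lost too. DESeq2 called 5 genes in place of 2 for the arsenic effect at 24 h against 12 h, and 8 pairs in place of 5 for non-treated cells over time, of which 1 (AKR1C1 at 12 h) was lower. With each library left out in turn, the counts ranged from 12 to 15 (arsenic), 5 to 8 (cadmium), and 17 to 18 (mercury) higher, 7 to 9 (arsenic against cadmium), 6 to 10 (arsenic against mercury), and 11 to 13 (cadmium against mercury), 1 to 2, 0 to 0, and 1 to 1 for the 24 h against 12 h effects of arsenic, cadmium, and mercury, and 3 to 7 for non-treated cells. Against non-treated cells, none was called lower under any of these. TKT with cadmium at 24 h had an LFC of -0.068 without cadmium replicate 3 and -0.071 without non-treated replicate 3, against 0.037 with all libraries and up to 0.134 without cadmium replicate 2, and was not called in any of these fits. The causes were not tested.

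With the replicate number as a block, counts were 13 for arsenic, 7 for cadmium, and 18 for mercury, and NQO1 with arsenic at 6 h was no longer called (adjusted p = 0.0515). Leaving out together the 3 libraries of low mitochondrial share, an alternative added after seeing the data, gave 13, 7, and 18. Of 46 LFC values against non-treated cells, 34 kept both their sign and their side of the adjusted p threshold in the fits compared. These fits were DESeq2, RLE factors, the other filters, the replicate block, the compared libraries alone, and each compared library left out. The rule on an LFC beyond 1 and the fit without low mitochondrial libraries were not among them. Of the other 12 values, TKT with cadmium at 24 h changed sign only and was never called. Low counts limit AKR1C2, AKR1C3, and AKR1B10.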
